A study of Mus musculus with 7 samples.

Results

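Solute carriers are membrane proteins that move ions, nutrients, metals, nucleosides and drugs across the plasma membrane and the membranes of organelles. Their mouse genes carry the prefix Slc, a family number, a letter and a member number. They are described here in tumours grown from Met1 and DB7, a pair of mouse mammary lines known for their origin in the polyoma middle T transgene, of which DB7 carries a mutant form. The members are the Slc genes with the letter a or b, and they were chosen by their array intensities: a probe set had to exceed the median of its array on 3 or more of the 7 arrays. Of 252 such genes with a probe set of their own, 138 met this condition, among 7482 genes of the array that did. The brightest of the probe sets that met it stood for each gene. The 2 arms were the Met1 transplant tumours (3 arrays) and the DB7 transplant tumours (4 arrays). No treatment, host strain or age is named in the labels for either line. The series' design text speaks of tumours of F1 animals from outcrosses of a PyMT carrier with AKR/J and DBA/2J, while the sample labels name the transplanted lines, which were followed. Each arm is a single line, so a difference is one between these lines.

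In an epithelium, solute carriers of the apical and the basolateral membrane together set what the cell takes up and secretes. The sodium pump maintains the gradient that many of them use. A mammary gland in lactation relies on them for the glucose, amino acids, phosphate and zinc of milk. Tumour cells use several of the same proteins for the uptake of glutamine, leucine and glucose and for the release of lactate.

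Values are the deposited log2 probe set summaries, and each difference is Met1 minus DB7 on that scale with limma's moderated standard error (SE). Adjusted p-values are those of limma over all 11704 tested probe sets, two-sided, with a threshold of 0.05. The intensities on the arrays chose the members, so their level is no result, and values of different probe sets are not compared as levels. Of the 138 members, 121 lay above the array median on all 7 arrays. Slc28a3 passed through its Met1 arrays alone, and Slc47a1, Slc12a8 and Slc16a6 through their DB7 arrays alone. These 4 genes had to differ between the lines to be included. Just inside the condition lay Slc22a7, Slc9a8 and Slc24a3, which at the array that decided exceeded the median by 0.043, 0.042 and 0.0089. Just outside lay Slc25a33, Slc1a1 and Slc4a1ap, at -0.05, -0.073 and -0.088.

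The arrays agreed closely within a line, with median SDs over the members of 0.09 in Met1 and 0.14 in DB7, the same as over all other tested genes. Of 6 epithelial markers 5 passed the intensity condition, and the list averaged 9.38 to 9.70 in Met1 and 9.98 to 10.15 in DB7. Of the 5 B cell markers 0 passed. Their mean was 5.07 to 5.30 in Met1, and in DB7 6.53 and 6.73 on DB7 1 and DB7 4 against 5.29 and 5.42 on DB7 2 and DB7 3. The 5 fibroblast markers averaged 10.15 to 10.92 in Met1 and 8.94 to 11.14 in DB7, where DB7 1 and DB7 4 were again the highest. The 4 adipocyte markers on the array, of which 2 passed, averaged 5.42 on Met1 1, 6.90 on Met1 2 and 6.29 on Met1 3. In DB7 they averaged 5.40 to 7.11. The 6 milk genes of the alveolar cell averaged 9.54 to 10.22 in Met1 and 7.05 to 7.32 in DB7. These are whole tumours, so fewer cells of a type and less RNA per cell cannot be told apart. The part of cell mixture in the differences below was not tested.

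Solute carriers differed between the lines about as often as other genes, and in both directions. Of the 138 members, 21 were higher and 22 lower in Met1, and 95 did not pass the threshold. That is 31.2% called, against 30.9% of all tested genes (13% higher and 17.9% lower). The median difference was -0.02 over the members and -0.04 over all tested genes. Differences of at least 2-fold were past the threshold for 7 members in each direction, against 3.02% of tested genes that were higher and 2.42% that were lower. In 56 members the values of the lines did not overlap, as in 39.2% of all tested genes. Without DB7 1 and DB7 4, 24 members were higher and 19 lower, and 39 of the 43 calls were kept. The calls of Slc14a2, Slc25a51, Slc50a1 and Slc2a5 were lost.

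**Figure D1:**
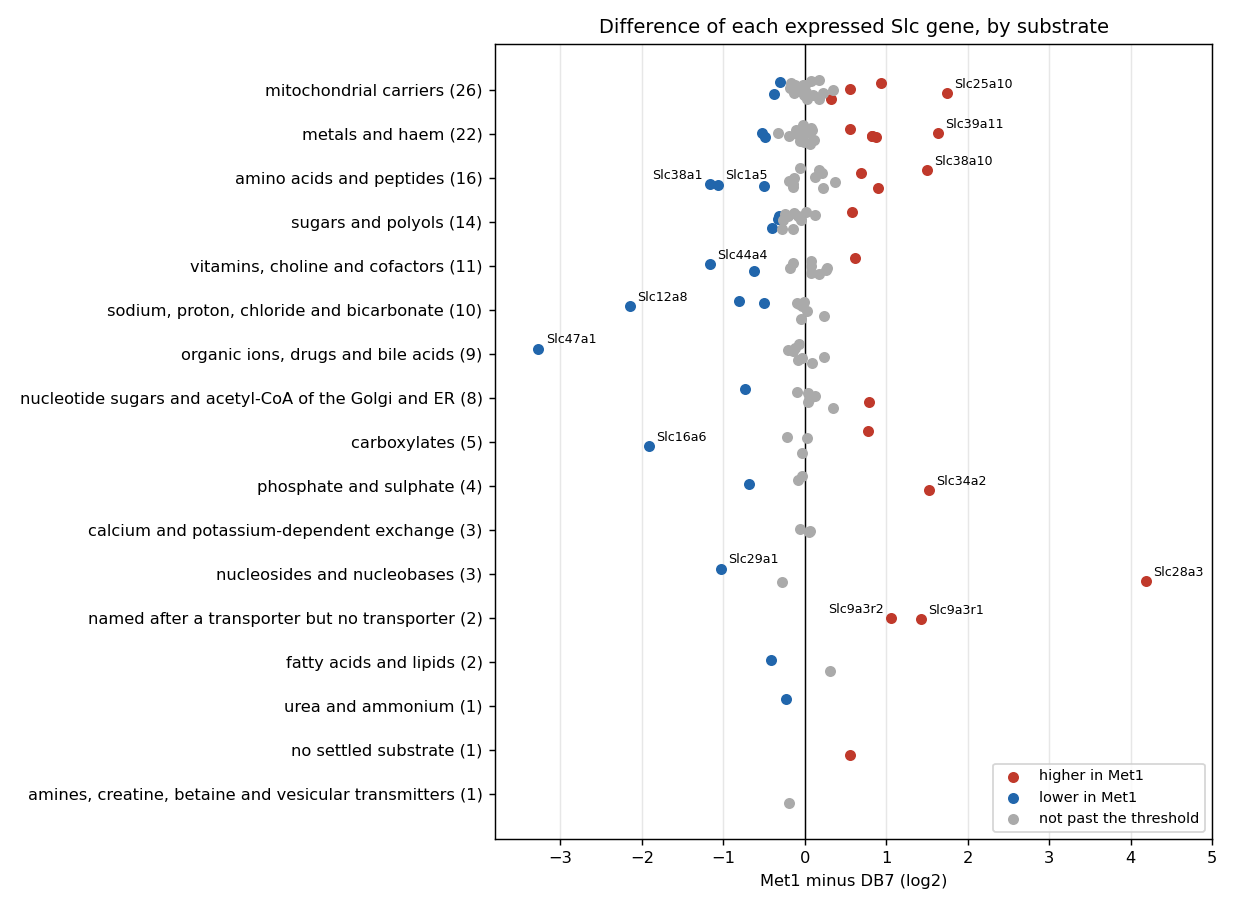
Difference of each of the 138 expressed Slc genes (x axis, Met1 minus DB7, log2) by substrate group (y axis, number of members in parentheses); each point is a gene, coloured by limma's call, and genes that differed at least 2-fold are named. Most genes lie near 0, Slc28a3 stands at 4.19 and Slc47a1 at -3.27.

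The largest rise among the members was that of a nucleoside transporter. Slc28a3, which encodes the concentrative transporter CNT3 that draws nucleosides into cells with the sodium gradient, had values of 9.89, 9.96 and 9.94 in Met1, against 5.93, 5.50, 5.74 and 5.76 in DB7. All DB7 arrays lay below their medians for this gene, and its 18.3-fold excess is therefore approximate (difference 4.19, SE 0.10; limma, adjusted p = 6.9e-08). Slc29a1 encodes the equilibrative transporter ENT1, which carries nucleosides in either direction down their gradient. Its values were 9.99, 9.91 and 9.76 in Met1 and 10.87, 10.74, 10.98 and 11.08 in DB7. The values did not overlap, and it was 2.04-fold lower in Met1 (difference -1.03, SE 0.10; limma, adjusted p = 0.00015). Slc29a3, the related transporter of lysosomes, had a difference of -0.28 (SE 0.13; limma, adjusted p = 0.157). The group has 3 expressed members, of which Slc28a3 had to be higher in Met1 to be included.

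The promoters of Slc28a3 and of the choline transporter-like gene Slc44a4 are shown because these genes had the largest rise and the largest fall among members with a single start site in RefSeq's table. Each is the 250 bases before the start on assembly GRCm38.p6, written 5′ to 3′ on the gene's strand. Capitals mark the GC box GGGCGG or its reverse complement. That of Slc28a3 is chr13:58610878-58611127 (minus strand) and that of Slc44a4 chr17:34914216-34914465 (plus strand).
Slc28a3: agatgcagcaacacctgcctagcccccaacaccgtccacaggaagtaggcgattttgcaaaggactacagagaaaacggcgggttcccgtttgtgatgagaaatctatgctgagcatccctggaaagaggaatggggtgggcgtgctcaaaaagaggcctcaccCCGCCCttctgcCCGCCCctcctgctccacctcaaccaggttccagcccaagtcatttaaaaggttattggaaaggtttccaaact
Slc44a4: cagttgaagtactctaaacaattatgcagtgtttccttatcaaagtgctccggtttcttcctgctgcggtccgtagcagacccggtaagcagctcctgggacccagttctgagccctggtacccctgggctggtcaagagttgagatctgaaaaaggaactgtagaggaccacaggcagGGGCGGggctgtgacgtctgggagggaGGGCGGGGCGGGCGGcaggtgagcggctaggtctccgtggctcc
The first holds 2 GC boxes and the second 4, of which 3 overlap each other. The letters GGGCGG, the TATA box TATAAA and TTCNNNGAA, the site form of STAT factors, were searched on both strands. Neither promoter contains TATAAA or TTCNNNGAA. The table has an entry for 105 of the 138 members. GGGCGG occurred in 63.5% of their 148 listed promoters, in 58.6% of 7696 promoters of the other tested genes and in 32.7% of all 32851 promoters. TATAAA occurred in 4.05%, 6.55% and 12.4% of these sets, and TTCNNNGAA in 3.38%, 5.39% and 7.02%. These are matches of letters, not sites of binding, and many genes have several entries.

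Organic ion transporters included the largest fall. Slc47a1 encodes MATE1, a proton-coupled exporter of organic cations and drugs. Its values were 4.92, 4.50 and 4.93 in Met1 and 7.79, 8.29, 7.83 and 8.31 in DB7. The Met1 values lay far below the array medians, so the 9.65-fold lower level in Met1 is approximate (difference -3.27, SE 0.17; limma, adjusted p = 4.33e-06). Slc47a1 had to differ between the lines to be included. It was the only one of 9 expressed members of this group to pass, 11.1% against 30.9% of all tested genes. The other 8 lay between -0.21 and 0.24. Among them were the urate transporter Slc22a12 at -0.21 (SE 0.08), which passed without DB7 2 (-0.25, limma, adjusted p = 0.0397), and Slc10a3 at 0.24 (SE 0.13).

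Of 16 amino acid and peptide transporters 3 rose and 3 fell, 37.5% in all against 30.9% of all tested genes. The falls were those of small neutral amino acid and glutamine transporters. Slc38a1, a sodium-coupled glutamine transporter also called SNAT1, had values of 8.16, 8.58 and 8.70 in Met1 and 9.52, 9.61, 9.68 and 9.78 in DB7. It was 2.24-fold lower in Met1 without overlap (limma, adjusted p = 0.000307). Slc1a5, the glutamine exchanger ASCT2, measured 6.51, 7.14 and 6.75 in Met1 and 8.13, 7.78, 7.76 and 7.80 in DB7, 2.1-fold lower in Met1 (limma, adjusted p = 0.00102). Slc38a2, SNAT2, was lower by 0.50 in Met1 (difference -0.50, SE 0.12; limma, adjusted p = 0.0142). Without Met1 1 that call was lost (-0.40, adjusted p = 0.0609). Slc38a3, of the same family, differed the other way by 0.37 (SE 0.14; limma, adjusted p = 0.0717), with overlapping values. It passed without Met1 1, and without both DB7 1 and DB7 4 (0.49, limma, adjusted p = 0.0492).

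Slc38a10, of the same family as Slc38a1 and Slc38a2, was 2.82-fold higher, at 10.69, 10.45 and 10.48 in Met1 against 9.16, 8.90, 8.84 and 9.28 in DB7 (limma, adjusted p = 5.89e-05). Slc15a2 encodes PEPT2, which takes up di- and tripeptides with protons. It was 1.87-fold higher, at 8.91, 8.46 and 8.39 against 7.54, 7.77, 7.66 and 7.76 (limma, adjusted p = 0.0011). Slc7a5, the LAT1 transporter of leucine and other large neutral amino acids, had values of 8.84, 9.02 and 8.99 in Met1 and 8.15, 8.02, 8.03 and 8.83 in DB7. The DB7 4 array thus nearly reached the Met1 values. The difference was 0.69 (SE 0.19; limma, adjusted p = 0.0219), and the call was lost without DB7 2 (0.0531), DB7 3 (0.06), Met1 1 (0.0501), Met1 2 (0.0805) or Met1 3 (0.0739). Slc3a2, the heavy chain that LAT1 needs to reach the membrane, differed by -0.13 (SE 0.11) with overlapping values. Slc7a7, another light chain of Slc3a2, was also high on DB7 4 (8.52, against 7.71 to 8.04 on the other DB7 arrays). It differed by 0.22 (SE 0.18), and by 0.39 without DB7 4 (limma, adjusted p = 0.032). The taurine transporter Slc6a6 differed by 0.21 (SE 0.15).

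**Figure D2:**
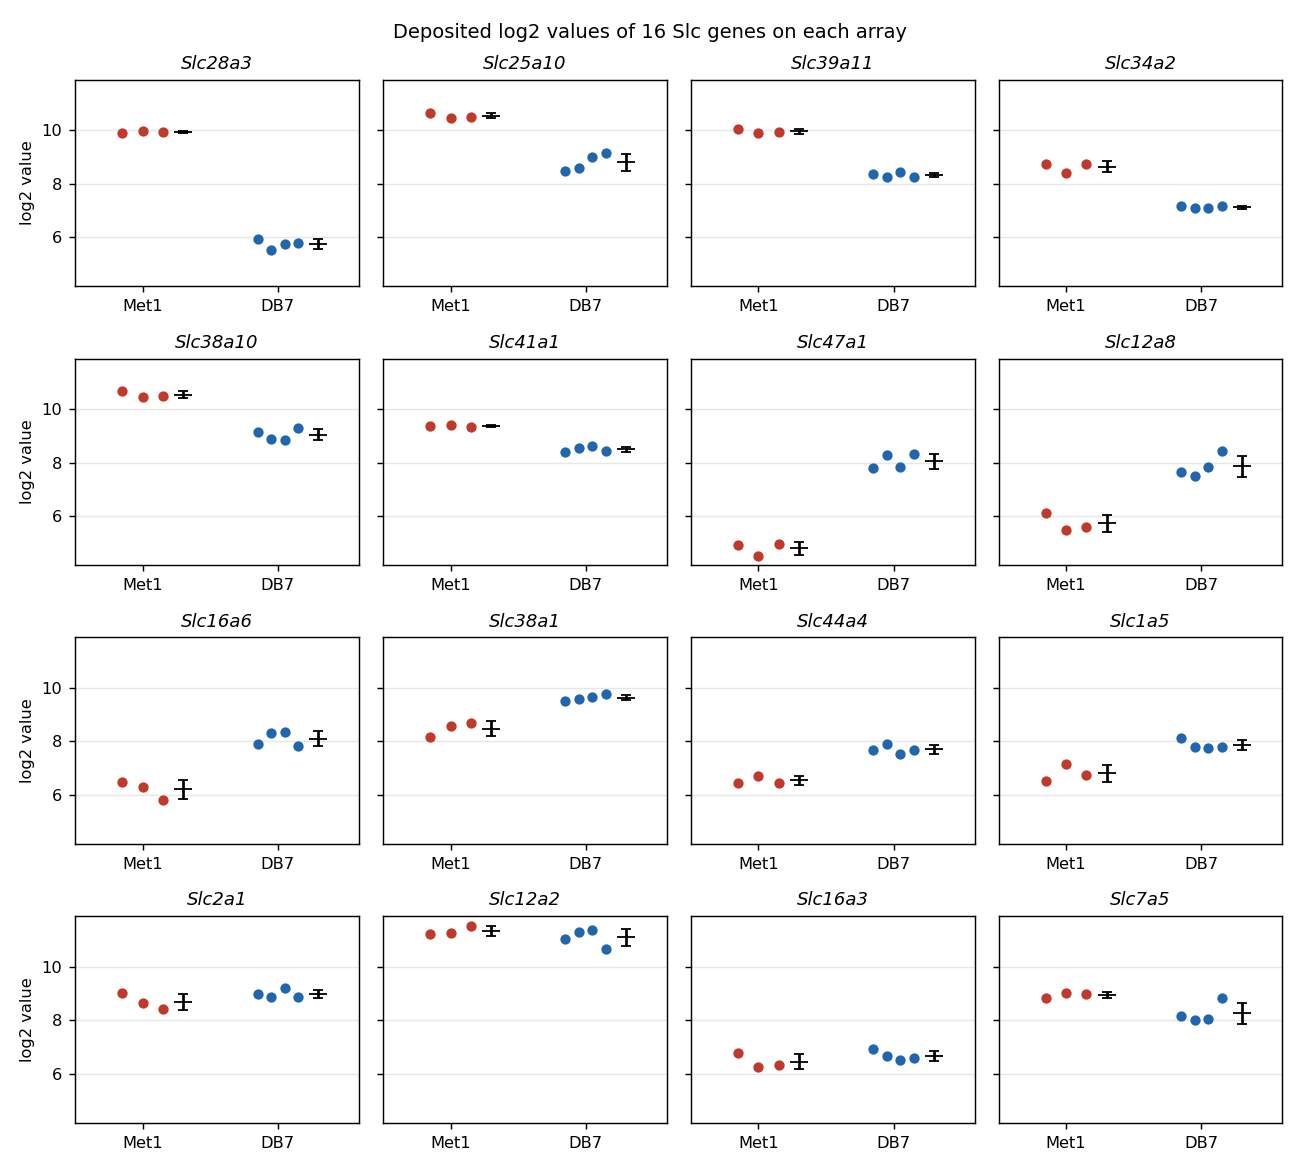
Deposited log2 values (y axis) of 16 Slc genes on the 3 Met1 and 4 DB7 arrays (x axis); points are arrays and the bar beside them is the mean with its SD. The lines do not overlap for Slc28a3, Slc25a10, Slc39a11, Slc34a2, Slc38a10, Slc41a1, Slc47a1, Slc12a8, Slc16a6, Slc38a1, Slc44a4, Slc1a5 and Slc7a5, and overlap for Slc2a1, Slc12a2 and Slc16a3.

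Phosphate transporters showed a rise and a fall. Slc34a2 encodes NaPi-IIb, the sodium-phosphate cotransporter of apical epithelial membranes, including those of lactating mammary gland. It was 2.86-fold higher, at 8.75, 8.40 and 8.75 in Met1 and 7.18, 7.07, 7.07 and 7.15 in DB7 (difference 1.52, SE 0.10; limma, adjusted p = 1.56e-05). Slc20a1, the widely expressed cotransporter PiT1, went the other way, at 8.70, 9.24 and 8.74 in Met1 and 9.38, 9.56, 9.49 and 9.91 in DB7 (difference -0.69, SE 0.16; limma, adjusted p = 0.012). That call was lost without Met1 1 (-0.59, adjusted p = 0.0564) or Met1 3 (-0.61, 0.0567). Its relative Slc20a2 and the sulphate transporter Slc26a2 differed by -0.08 (SE 0.07) and -0.03 (SE 0.18).

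Among 10 carriers of sodium, protons, chloride and bicarbonate, 3 fell in Met1 and 0 rose by limma, and 3 had an unadjusted p under 0.05. That is 30% called against 30.9% of all tested genes, and Slc12a8 is one of those that had to differ to be included. Slc12a8, a member of the cation-chloride cotransporter family whose substrate is debated, had values of 6.09, 5.47 and 5.58 in Met1 and 7.66, 7.50, 7.84 and 8.43 in DB7. It was 4.42-fold lower in Met1, where it lay below the array medians (difference -2.15, SE 0.23; limma, adjusted p = 0.000185). Slc4a4, the electrogenic sodium bicarbonate cotransporter NBCe1, was 1.75-fold lower (6.77, 6.81 and 6.87 against 7.22, 7.75, 7.93 and 7.59; limma, adjusted p = 0.00366). Slc12a7, the potassium-chloride cotransporter KCC4, was 1.41-fold lower (adjusted p = 0.00804). Slc12a2, the NKCC1 cotransporter that loads secretory epithelia with chloride, differed by 0.24 (SE 0.17) with overlapping values, 11.22, 11.29 and 11.55 in Met1 and 11.06, 11.31, 11.39 and 10.68 in DB7. Slc5a5, the sodium-iodide symporter of thyroid and lactating breast, differed by -0.05 (SE 0.08). The 3 exchangers of calcium and potassium lay between -0.06 and 0.06 and did not pass.

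Of 22 metal transporters 5 were higher and 2 lower, which is 31.8% called against 30.9% of all tested genes. Of the rises, 3 belong to the Slc39 family, whose ZIP proteins bring zinc and other divalent metals into the cytosol. Of its 8 expressed members 0 fell, and 37.5% were called, near the 30.9% of all tested genes. Slc39a11, ZIP11, was 3.1-fold higher, at 10.05, 9.90 and 9.93 in Met1 and 8.38, 8.24, 8.43 and 8.26 in DB7 (limma, adjusted p = 4.72e-06). Slc39a14, ZIP14, which also carries iron that is not bound to transferrin, was 1.77-fold higher (8.67, 8.26 and 8.48 against 7.78, 7.45, 7.76 and 7.59; limma, adjusted p = 0.00118). Slc39a9, ZIP9, was 1.48-fold higher without overlap (adjusted p = 0.00059). The other members of this family lay between -0.02 and 0.11. Of the 6 Slc30 genes, which encode ZnT proteins that move zinc out of the cytosol, Slc30a7 of the Golgi fell by 0.53 (SE 0.12; limma, adjusted p = 0.00803) and 5 did not pass. Slc30a4, known for loading zinc into mouse milk, differed by 0.09 (SE 0.08).

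Some iron and magnesium carriers also differed, while others did not pass. Slc41a3, Slc11a1 and the haem transporter Slc48a1 lay at -0.02 (SE 0.09), -0.11 (SE 0.15) and -0.20 (SE 0.08) without passing. Slc41a1, a magnesium transporter, was 1.83-fold higher, at 9.39, 9.40 and 9.32 in Met1 and 8.41, 8.54, 8.61 and 8.44 in DB7 (limma, adjusted p = 0.000101). Slc40a1, the iron exporter ferroportin, measured 7.37, 6.99 and 7.08 in Met1 and 6.63, 5.76, 6.32 and 6.59 in DB7 (difference 0.82, SE 0.20; limma, adjusted p = 0.0146), and the call was lost without Met1 1 (0.71, adjusted p = 0.0659). Slc11a2, the importer DMT1 of iron and other divalent metals, was lower, at 6.86, 7.22 and 7.06 against 7.36, 7.54, 7.67 and 7.58 (difference -0.49, SE 0.11; limma, adjusted p = 0.00887). A second of its probe sets fell by 0.36 and the last differed by -0.14 (SE 0.10).

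Of 26 expressed mitochondrial carriers 4 rose and 2 fell, 23.1% in all against 30.9% of all tested genes. Slc25a10, the dicarboxylate carrier that exchanges malate and succinate for phosphate, was 3.35-fold higher, at 10.65, 10.48 and 10.50 in Met1 and 8.47, 8.60, 8.99 and 9.14 in DB7 (limma, adjusted p = 9.12e-05). Slc25a29, a carrier of basic amino acids, was 1.92-fold higher (9.02, 8.66 and 8.79 against 7.86, 7.78, 7.98 and 7.90; limma, adjusted p = 0.000204). Slc25a20, which brings acylcarnitines in for fatty acid oxidation, was 1.47-fold higher, at 7.86, 7.91 and 7.87 against 7.31, 7.35, 7.30 and 7.31 (limma, adjusted p = 0.000307). Its arrays were nearly identical within each line. Slc25a25, an ATP-magnesium and phosphate carrier, fell by 0.31 (SE 0.07; adjusted p = 0.0106). Weaker calls were those of Slc25a51, the NAD carrier, at 0.32 (SE 0.10; adjusted p = 0.0306), and Slc25a4, the adenine nucleotide translocase ANT1, at -0.38 (SE 0.11; adjusted p = 0.0288). The first was lost without DB7 1 (adjusted p = 0.0529), DB7 4 (0.0602), Met1 1 (0.104) or Met1 2 (0.111). The second was lost without DB7 3 (0.068), DB7 4 (0.0561), Met1 1 (0.106), Met1 2 (0.072) or Met1 3 (0.0725). Slc25a5, the related ANT2, differed by -0.02 (SE 0.11) and its 6 probe sets lay between -0.10 and 0.07. The other probe sets of Slc25a4 differed by -0.26 (SE 0.09) and -0.13 (SE 0.19) without passing. Slc25a4 and Slc25a5 are close paralogs, so signal may be shared between them. The phosphate carrier Slc25a3 and Slc25a39, a carrier linked to mitochondrial glutathione, differed by -0.17 (SE 0.09) and -0.18 (SE 0.07) without passing. Slc25a39 passed under quantile normalization (-0.18, limma, adjusted p = 0.0472), and of its other probe sets one was lower (-0.39, SE 0.09; adjusted p = 0.0115) and one differed by -0.13 (SE 0.12).

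Of 14 sugar transporters 1 rose and 3 fell, 28.6% in all against 30.9% of all tested genes. The median difference was -0.18, against -0.04 over all tested genes. Slc2a1, the main glucose transporter GLUT1, had overlapping values of 9.02, 8.65 and 8.43 in Met1 and 8.99, 8.88, 9.20 and 8.86 in DB7 (difference -0.28, SE 0.15; limma, adjusted p = 0.175). It passed without Met1 1 (-0.44, adjusted p = 0.0421), and its other probe sets differed by -0.24 and -0.19. Slc45a3, of a family of sugar transporters, rose by 0.58 (SE 0.12; limma, adjusted p = 0.00573). Slc37a3 of the sugar phosphate exchanger family fell by 0.40 (SE 0.11; limma, adjusted p = 0.0209), Slc50a1, a SWEET family sugar transporter, by 0.33 (SE 0.09; 0.0281), and the fructose transporter Slc2a5 by 0.32 (SE 0.10; 0.0461). The call of Slc37a3 was lost without Met1 2 (0.0909) or Met1 3 (0.0646), and that of Slc50a1 without DB7 3 (0.061), Met1 2 (0.107) or Met1 3 (0.0614). Values of Slc2a5 overlapped, and its call was lost without DB7 1 (0.0629), DB7 3 (0.0994), DB7 4 (0.102), Met1 1 (0.161) or Met1 2 (0.115).

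Carboxylate carriers gave 1 rise and 1 fall among 5, 40% in all against 30.9% of all tested genes. The fall was that of Slc16a6, which had to differ between the lines to be included. Slc16a6, a member of the monocarboxylate transporter family that exports ketone bodies in zebrafish, was 3.75-fold lower in Met1. Its values were 6.48, 6.30 and 5.81 in Met1, all below the array medians, and 7.90, 8.33, 8.37 and 7.81 in DB7 (difference -1.91, SE 0.19; limma, adjusted p = 0.000142). Slc16a3, the lactate exporter MCT4, had overlapping values (6.76, 6.24 and 6.33 in Met1, 6.91, 6.64, 6.51 and 6.59 in DB7; difference -0.22, SE 0.14). Slc5a8, a sodium-coupled importer of short monocarboxylates, measured 7.65, 7.60 and 7.48 in Met1 and 7.0, 7.10, 7.03 and 6.12 in DB7. The low DB7 4 value widened its spread (difference 0.77, SE 0.22; limma, adjusted p = 0.0263). The call was lost without Met1 1 (0.0874), Met1 2 (0.085) or Met1 3 (0.0613), and without DB7 4 the difference was 0.54. Fatty acid transport protein Slc27a1 fell by 0.41 (SE 0.08; adjusted p = 0.00408). Its relative Slc27a4 differed by 0.31 (SE 0.11; adjusted p = 0.0563) and passed without DB7 4 (0.37, adjusted p = 0.0302) or Met1 2 (0.39, 0.0445).

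Golgi transporters of sugar nucleotides, which feed the building of glycans, gave 1 rise and 1 fall among 8. That is 25% called, against 30.9% of all tested genes. Slc35a1, the CMP-sialic acid transporter, was 1.73-fold higher, at 8.29, 8.52 and 8.65 in Met1 and 7.62, 7.89, 7.62 and 7.68 in DB7 (limma, adjusted p = 0.000812). Its other probe set rose by 1.29. Slc35a3, the UDP-N-acetylglucosamine transporter, was 1.66-fold lower, at 7.59, 7.99 and 7.80 in Met1 and 8.44, 8.66, 8.53 and 8.48 in DB7 (limma, adjusted p = 0.00109), while its dimmer probe set differed by 0.02 (SE 0.09). Slc35b3, which carries the sulphate donor PAPS into the Golgi, differed by 0.35 (SE 0.12; adjusted p = 0.0541), and passed without DB7 2 (0.44, adjusted p = 0.0204). Slc35b4 differed by 0.04 (SE 0.08) without passing. Its dimmer probe sets were higher by 0.35 (SE 0.09; limma, adjusted p = 0.0166) and 0.27 (SE 0.08; 0.0371).

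Among 11 carriers of vitamins and choline, the choline transporter-like family Slc44 held all 3 calls. That is 27.3% called, against 30.9% of all tested genes. Slc44a4 was 2.25-fold lower, at 6.44, 6.71 and 6.45 in Met1 and 7.68, 7.92, 7.54 and 7.66 in DB7 (limma, adjusted p = 0.000101). Only 1 of its Met1 values lay above its array's median, so the fold is approximate. Slc44a3 was 1.53-fold lower, at 6.69, 6.37 and 6.38 in Met1 and 7.09, 7.23, 6.89 and 7.18 in DB7 (adjusted p = 0.00372). Slc44a2 went the other way with overlapping values, 8.33, 8.19 and 8.56 in Met1 and 7.52, 7.49, 7.70 and 8.27 in DB7 (difference 0.62, SE 0.19; limma, adjusted p = 0.0326). Its call held without DB7 4 and was lost without DB7 1 (0.0635), DB7 2 (0.0752), DB7 3 (0.0765), Met1 1 (0.0838), Met1 2 (0.0558) or Met1 3 (0.127). The last of its 4 expressed genes did not pass. The proton-coupled folate transporter Slc46a1 differed by 0.27 (SE 0.11), and passed without Met1 2 (0.39, adjusted p = 0.0321). The urea transporter Slc14a2, alone in its group, fell by 0.23 (SE 0.07; limma, adjusted p = 0.0421). That call held without DB7 2 and was lost without any other single array (adjusted p from 0.0637 without Met1 2 to 0.144 without Met1 3). The creatine transporter Slc6a8 differed by -0.20 (SE 0.09), while its dimmer probe set was higher by 0.22 (SE 0.07; limma, adjusted p = 0.0466). Slc66a2, of the PQ-loop family and without a settled substrate, rose by 0.55 (SE 0.11; adjusted p = 0.00481).

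The rule also takes in 2 genes that are named after a transporter but encode none. Slc9a3r1 and Slc9a3r2 encode the NHERF1 and NHERF2 scaffolds, whose PDZ domains hold transporters and channels at the apical membrane. Slc9a3r1 was 2.69-fold higher, at 11.09, 11.13 and 10.80 in Met1 and 9.52, 9.5, 9.69 and 9.59 in DB7 (limma, adjusted p = 2.57e-05). Slc9a3r2 was 2.09-fold higher, at 8.64, 8.52 and 8.62 in Met1 and 7.65, 7.73, 7.40 and 7.32 in DB7 (limma, adjusted p = 0.000174). The other tested probe sets of Slc9a3r1 rose by 1.31 and 1.67. Of the other 5 probe sets of Slc9a3r2, 4 rose by 0.51 to 0.77 and the last differed by 0.11 (SE 0.08).

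Different probe sets of a gene did not always give the same difference. For 44 members more than 1 probe set was tested. The signs were the same in 31 and opposite in 13, and 0 had calls in both directions. Over all tested probe sets 31% were called. The 7 probe sets of Slc38a10 ranged from -0.19 (SE 0.09) to 1.57 (SE 0.10), of which 4 rose and 3 did not pass. For Slc31a1, the copper importer CTR1, the brighter probe set differed by -0.10 (SE 0.20) and the dimmer rose by 0.85 (SE 0.12; limma, adjusted p = 0.00101). The 5 probe sets of Slc25a29 all rose, by 0.60 to 1.10, and the second of Slc28a3 rose by 2.73 (SE 0.10). The 3 probe sets of Slc12a2 differed by 0.24, -0.04 and -0.48 and did not pass. Slc4a4 had a second probe set at -0.11 (SE 0.08), and Slc39a14 one at 0.19 (SE 0.14).

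**Figure D3:**
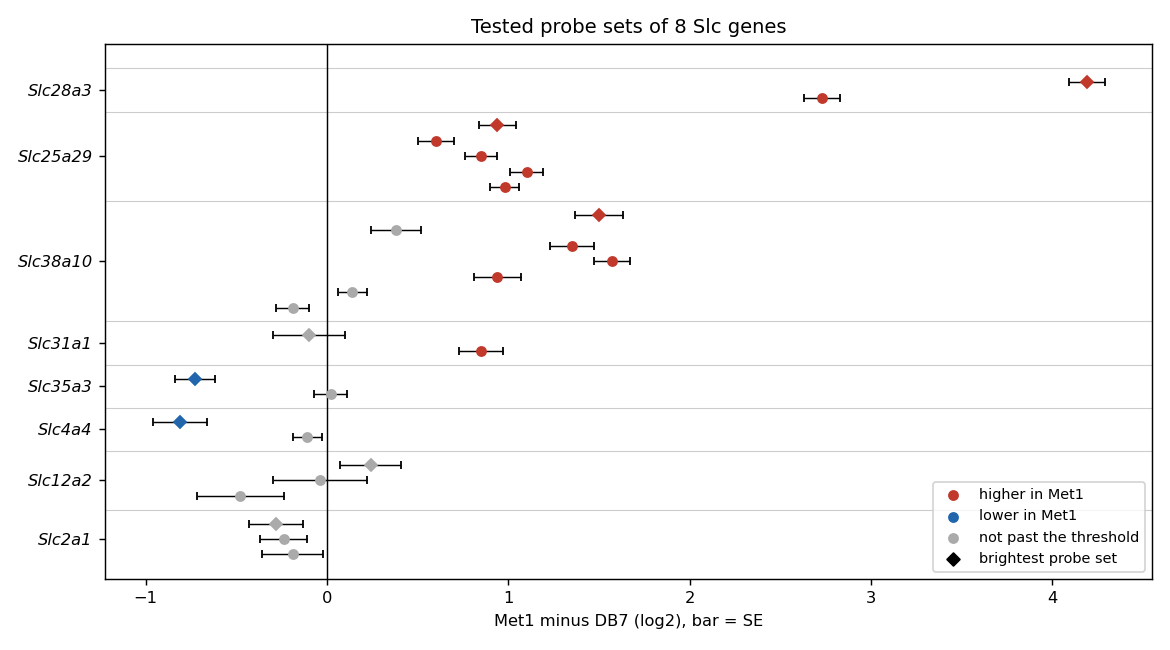
Difference (x axis, Met1 minus DB7, log2, bars are SE) of each tested probe set of 8 Slc genes (y axis), the brightest on top as a diamond, coloured by limma's call. Probe sets of Slc28a3 and Slc25a29 all lie above 0, those of Slc38a10 spread from -0.19 to 1.57, and the pair of Slc31a1 differs by sign.

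Several of the higher genes lie among neighbours that were also higher. Of all tested genes 13% were higher in Met1 and 17.9% lower, and their median difference was -0.04. In the gene order of assembly GRCm38.p6, the 10 tested genes on each side of Slc25a10, near the end of chromosome 11, had a median difference of 1.01, and 18 of these 20 were higher in Met1 and 0 lower. Slc38a10, 7 tested genes away, had neighbours with a median of 0.49, of which 13 were higher and 4 lower. Slc16a3 lies in the same stretch, where its 20 neighbours had a median of 1.17 and 19 of them were higher, while Slc16a3 itself differed by -0.22. The neighbours of Slc9a3r1, farther from the end of that chromosome, had a median of 0.50. Slc39a9 and Slc25a29 on chromosome 12 had neighbour medians of 0.42 and 0.22. Over all 252 tested genes of chromosome 12 the median was 0.35, with 125 higher and 11 lower. For Slc28a3, Slc39a11 and Slc47a1 the neighbour medians were 0.01, 0.01 and -0.01, and for Slc34a2 the median was -0.22. Whether position had a part in any of these differences was not tested.

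**Figure D4:**
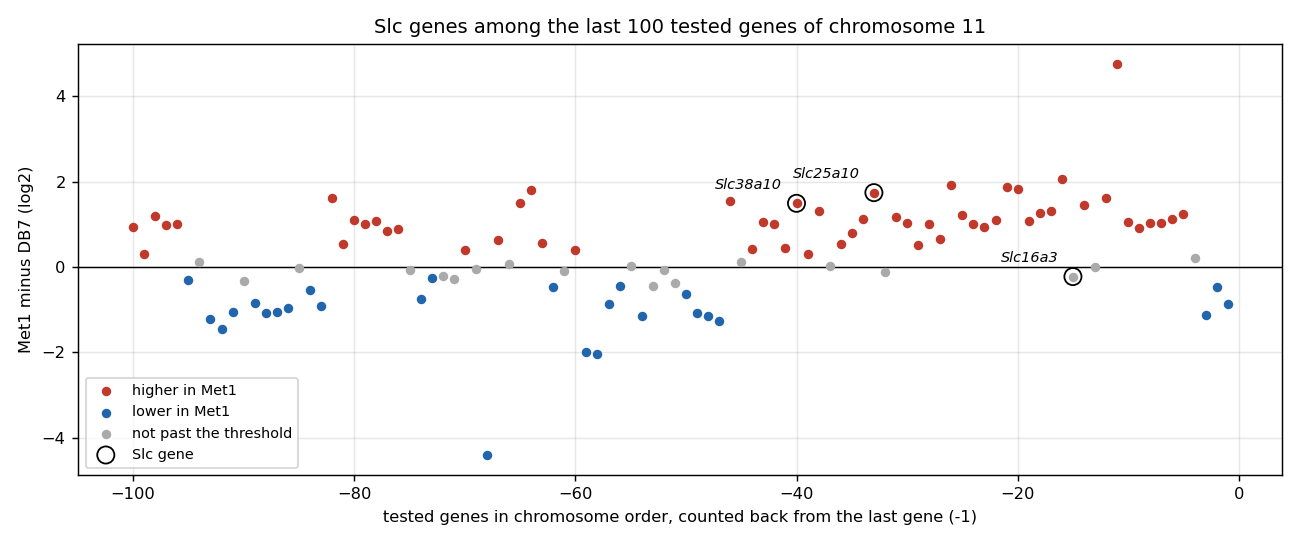
Difference (y axis, Met1 minus DB7, log2) of the last 100 tested genes of chromosome 11 in gene order (x axis, counted back from the last gene at -1); points are genes coloured by limma's call, and circles mark the Slc genes. Slc38a10 and Slc25a10 lie in a stretch of higher genes, and Slc16a3 lies at -0.22 within it.

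Genes that supply or steer these transporters were described from 3 lists. Of 20 tested genes of the sodium pump and transporter partners, 6 rose and 2 fell. Atp1b1, a beta subunit of the sodium pump, was 3.98-fold lower, at 9.19, 9.22 and 8.94 in Met1 and 11.11, 11.17, 11.18 and 10.97 in DB7 (limma, adjusted p = 3.59e-06). The beta subunits Atp1b2 and Atp1b3 differed by 0.07 (SE 0.08) and -0.05 (SE 0.09) and did not pass. Fxyd3, a small modulator of the pump, was 2.45-fold lower, at 10.32, 10.53 and 10.21 against 11.59, 11.87, 11.57 and 11.56 (adjusted p = 5.73e-05). Sgk1, a kinase that raises the surface level of several ion transporters, was 3.02-fold higher, at 9.18, 8.75 and 8.86 against 7.25, 7.70, 7.72 and 6.67 (adjusted p = 0.0014). Nedd4l, the ubiquitin ligase that Sgk1 restrains, was 1.49-fold higher (adjusted p = 0.000799). Of 14 tested solute carriers with other kinds of name, 3 rose and 3 fell. The prostaglandin transporter Slco2a1 was 2.44-fold higher, at 8.91, 9.21 and 9.31 in Met1 and 7.74, 7.57, 8.01 and 8.11 in DB7. Mpc1, a subunit of the mitochondrial pyruvate carrier, was 1.86-fold lower, at 6.88, 7.18 and 6.74 against 7.77, 8.15, 7.80 and 7.59. Sfxn3 of the sideroflexin family rose by 0.62 and Flvcr2 fell by 0.42. Of 16 ABC transporters, which use ATP, 2 rose and 1 fell. Abca1, the exporter of cholesterol, was 2.28-fold higher, at 8.81, 8.65 and 8.83 against 8.23, 7.24, 6.96 and 7.87 (adjusted p = 0.00951), Abcg1 rose by 0.43 and Abcb10 fell by 0.34. The drug exporter Abcg2 differed by -0.49 (SE 0.23; adjusted p = 0.141). These lists gave calls for 40%, 42.9% and 18.8% of their tested genes, against 30.9% of all tested genes.

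The other 114 Slc genes on the array did not meet the intensity condition. Among them were the lactate transporter Slc16a1, at 5.57, 5.68 and 5.62 in Met1 and 5.57, 5.15, 5.01 and 6.69 in DB7, the cystine-glutamate exchanger Slc7a11 at 5.28 to 5.35 in Met1 and 5.28 to 5.50 in DB7, and the zinc transporter Slc30a2 at 5.74 to 6.10 and 5.14 to 5.74. Of these values, only that of Slc16a1 on DB7 4 lay above its array's median, 6.61. Values far below the array medians do not show whether a gene was expressed. The glutamate transporter Slc1a1, just outside the condition, was at 6.51, 6.70 and 6.63 in Met1 and 5.82, 5.69, 6.09 and 5.69 in DB7.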

How the data were processed

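Total RNA of 7 tumour samples was measured on 1-colour Affymetrix arrays, per the labels. The authors deposited 1 value per probe set, taken to be log2 from its range. RMA and MAS5 are both named, per the submitters' processing notes, with no role given. Arrays give no read depth, and their number limits the precision. The labels do not tie arrays to separate animals. The p-values then measure only how far these samples spread, and part of that may be technical.

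Of 22690 probe sets, 64 controls were left out. GEO's platform annotation gave 1 gene symbol to 20380 of the other 22626, several to 691 and none to 1555. No symbol needed updating through the RefSeq table of GRCm38.p6. The 11704 probe sets above their array's median on at least 3 arrays were fitted with limma 3.58.1 under R 4.3.3, by lmFit and then eBayes with a trend on intensity, with line as the only term over all 7 arrays and with Benjamini-Hochberg adjustment over them. A simulated data set with known changes tested the fit.

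Members were grouped by substrate family. Named genes are the 12 members that differed most each way among those called without overlap, up to 4 with the smallest p in each substrate group and each of the 3 further lists, the 6 brightest, the 3 on each side of the intensity condition, a list of textbook transporters and those that are no transporter. Slc25a4, Slc25a51, Slc31a1, Slc7a7, Slc30a6, Slc35b4, Slc38a3, Slc41a3, Slc11a1, Slc48a1, Atp1b2 and Atp1b3 were named after their values were seen. So were the 2 promoters chosen. The members and lists were chosen with earlier results of these data known. Some textbook transporters of the list are not reported here.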

Additional observations from a re-analysis of the deposited data

Results flagged for a closer look

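In 14 of the 138 members, 1 of the 4 DB7 arrays stood apart from the other DB7 arrays. Its gap to the nearest of them, as a share of the group's range, was above Dixon's critical value. Chance marks about 1 in 20 groups. The share is large even for a small gap where the other values are nearly the same. The named genes among these members follow. Slc1a5 measured 8.13 on DB7 1, against 7.76 to 7.80 on the other DB7 arrays, and Slc6a8 measured 8.70 there, against 8.49 to 8.52. On DB7 4, Slc5a8 measured 6.12, against 7.0 to 7.10, and Slc7a5 measured 8.83, against 8.02 to 8.15. On DB7 2, the zinc transporter Slc30a6 measured 8.53, against 8.0 to 8.03, and Slc20a2 measured 8.18, against 8.12 on each of the others, a gap of only 0.06. Slc38a3 measured 7.49 there, against 7.86 to 7.93. On DB7 3, Slc35b4 measured 7.17, against 7.28 on each of the others. Slc30a6 differed by -0.33 between the lines (SE 0.14) and did not pass. The B cell marker mean was also raised on DB7 1 and DB7 4, and its part in these values was not tested.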

How the results depend on the processing

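The count of members called moved by over 1.5 times only when a difference of at least 2-fold was tested for. That left 4 higher (Slc28a3, Slc25a10, Slc39a11 and Slc34a2) and 3 lower (Slc47a1, Slc12a8 and Slc16a6). Slc28a3 and these 3 lower genes had to differ between the lines to be included. Under the other alternatives on all arrays, among them quantile normalization, median centring, array weights and other variance models, 17 to 25 members were higher and 16 to 24 lower. Of these, 2 tested fewer members, 121 above the median on all arrays and 111 with specific probe sets. Leaving out each array in turn gave 17 to 22 higher and 17 to 23 lower, and 31 of the 43 calls held in every such fit. The median difference of the members stayed between -0.04 and 0.02. With the dimmest probe set of a gene, Slc38a10 (-0.19), Slc35a3 (0.02) and Slc25a51 (-0.10) turned sign without passing. Pairing by replicate number had no support: same-numbered arrays correlated at -0.1724, -0.0532 and 0.0157 in their deviations from the line means. With the replicate block 22 members were higher and 16 lower, with a median of -0.02. A fit on 1 probe set per gene, added after the data had been seen, gave 21 higher and 22 lower. Values below the array medians limit the folds of Slc28a3, Slc47a1, Slc12a8 and Slc16a6. Some values of other called members also lay below the medians. Slc44a4 and Slc44a3 each exceeded the median on only 1 Met1 array and Slc1a5 on 2. In DB7, Slc40a1 exceeded it on 1 array and Slc5a8 on 3.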

Other observations

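Identical values recur between arrays. In 45 of the 138 members (32.6%), at least 2 of the 7 arrays carried the same value to 6 decimals, against 29.8% of all tested probe sets and 42.2% of all probe sets. The part of such repeats in any call was not tested.

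Members of the same family moved apart in several families. The Slc38 family had Slc38a10 higher and Slc38a1 and Slc38a2 lower, while Slc38a3 differed by 0.37 without passing. The Slc44 family had Slc44a2 higher and Slc44a3 and Slc44a4 lower. The call of Slc44a2 held without DB7 4 and was lost without any other single array. The 6 expressed Slc22 genes lay between -0.21 and -0.04. In limma 0 of them passed, against 30.9% of all tested genes, with 1 at an unadjusted p under 0.05. So few genes cannot show a trait of the family.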
